A study of Mus musculus with 9 samples.

Results

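The mouse circular RNA array used here carries 30534 circRNA probes, and 524 of them bear a name that begins with mmu-circRNA, followed by a number and, for 241 of the 524, a numbered suffix. These 524 probes were taken by name alone, and no measured value entered the rule, although the set was chosen with earlier results of these data known. The other circRNA probes were named with the prefix mmu_circ (13892 probes), with the prefix Fan (2075 probes) or by genome position (14043 probes). Each mmu-circRNA probe was spotted 1 time per array and has a partner probe with the same name and the ending _neg, whose design the labels do not state. No host gene, position or probe sequence is paired with these names in the sources used here, so each circle is identified by its code name only, and its tissue of origin could not be checked against marker genes.

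Circular RNAs form when the spliceosome joins a downstream splice donor to an upstream acceptor of the same transcript, a reaction called back-splicing. The closed product has no free ends, so the exonuclease RNase R, which degrades linear RNA, spares it, and in cells such circles are usually more stable than their linear counterparts. One gene can give several circles that share exons and differ in their back-splice junction, and a few well-studied circles bind microRNAs or proteins. For most circles no function is known.

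Livers of male wild-type C57BL/6J mice were compared at 20 weeks of age in 3 groups of 3 arrays, and every array measured RNA pooled from 4 mice of its group. Control mice ate chow for 17 weeks, while the high fat diet group ate high fat chow (45% of kcal from fat) over the same 17 weeks, with saline gavage in the last 5. The metformin group had the same fat diet and was gavaged with metformin, a glucose-lowering biguanide, at 3 mg/kg/day over the same 5 weeks. For each pool, 5 µg of total RNA from 15 mg of liver was digested with RNase R for 30 minutes and labelled with Cy3. No gavage is listed for the control mice, so the fat diet and the gavage cannot be told apart in comparisons with the control. Pools hide the spread between animals, and every p-value measures the spread between pools. The 3 controls and high fat diet replicate 1 lay in column 1 of slide 1, and high fat diet replicates 2 and 3 with metformin replicates 1 and 2 in its column 2. Metformin replicate 3 was the only array used here on slide 2. No control shared a slide column with metformin, so array position and group cannot be told apart in that comparison. In whole liver RNA, fewer cells of a type and less RNA per cell cannot be told apart.

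The level of a probe is the log2 of its processed Cy3 intensity minus the 75th percentile of its array. A level of 0 is thus as bright as the 75th percentile, and levels of different probes also carry their different hybridisation strengths. A probe was detected where the scanner software marked it well above background. The mmu-circRNA probes were detected at shares close to those of the whole array. In the control group 85.9%, 87.0% and 90.1% of the 524 were detected on replicates 1 to 3, a mean of 87.7% ± 2.17 (SD, n = 3). In the high fat diet group the shares were 88.7%, 78.2% and 83.2%, a mean of 83.4% ± 5.25 (SD, n = 3). In the metformin group they were 90.3%, 89.1% and 74.4%, a mean of 84.6% ± 8.83 (SD, n = 3). The 3 groups overlapped, and high fat diet replicate 2 and metformin replicate 3 were the lowest. The dimmest level marked as detected was also highest on those arrays, at -4.04 and -3.71, against -5.31 to -4.53 on the other 7. The part of this limit, or of the slide, in the lower shares was not tested.

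Across the 9 arrays, 386 of the 524 mmu-circRNA probes (73.7%) were detected on every array, against 75.1% of all circRNA probes. A further 41 (7.82%, against 8.85% of all) were detected on none, and 97 on some arrays but not all. The shares detected on every array were 76.7% for the mmu_circ names, 76.2% for the Fan names and 73.4% for probes named by position. The mmu-circRNA probes were above the position-named probes in detected share on 8 of 9 arrays, above the Fan names on 4 and above the mmu_circ names on 2.

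**Figure D1:**
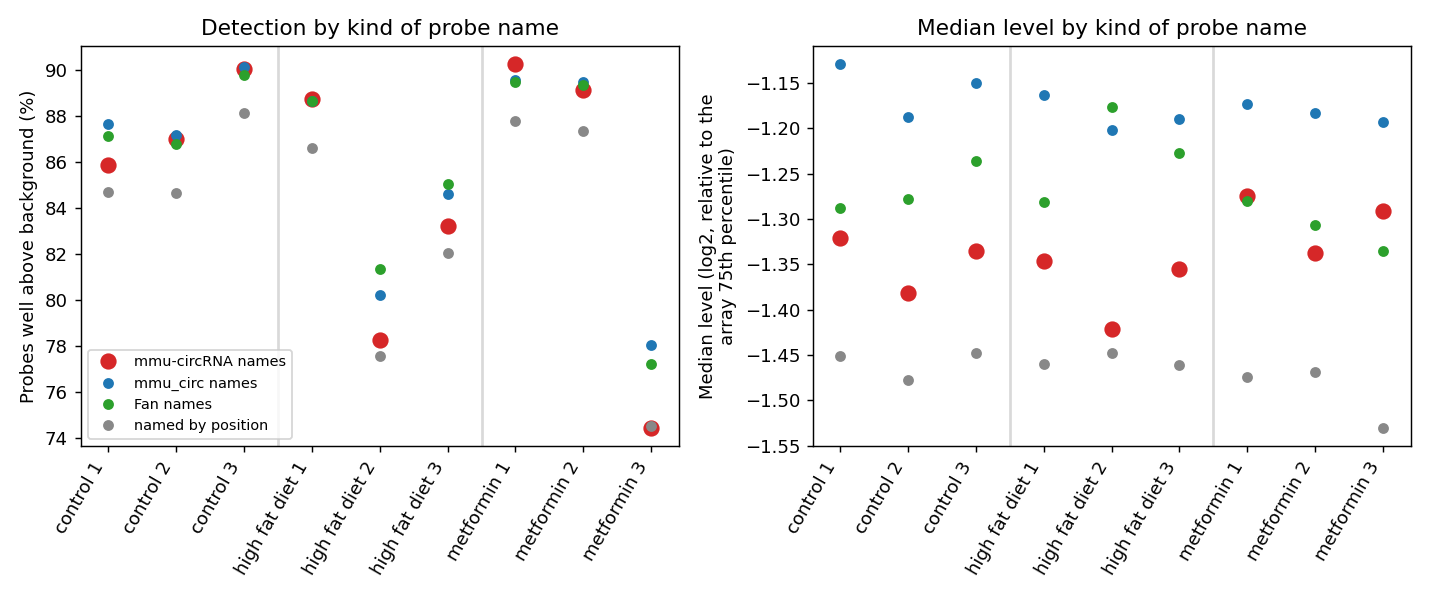
Share of probes well above background (left, %) and median level (right, log2 relative to the array 75th percentile) on each of the 9 arrays, with a point for each kind of probe name; the axes do not start at 0. The mmu-circRNA names (large red points) lie among the other kinds in detection, lowest on metformin replicate 3 at 74.4%, and their median level lies below the mmu_circ names on 9 of 9 arrays.

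The median level of the mmu-circRNA probes was -1.35 ± 0.03 in the control group, -1.37 ± 0.04 in the high fat diet group and -1.30 ± 0.03 in the metformin group (SD, n = 3 arrays each). The array medians ran from -1.42 to -1.27. The control group overlapped both others, while every metformin array (lowest -1.34) was just above every high fat diet array (highest -1.35). That difference of 0.07 had a two-sided exact permutation p of 0.1, the smallest that 3 against 3 arrays can give. This test was not planned and was run for this pair of groups only. Groups that do not overlap always give that p, so it adds nothing to the separation already stated. After normexp background correction and quantile normalization the order turned (8.61 under metformin, 8.62 on the high fat diet). The median lay below that of the mmu_circ names on 9 of 9 arrays (differences of -0.22 to -0.10) and above that of the position-named probes on 9 of 9, by 0.03 to 0.24. Against the Fan names it was higher on 2 of 9 arrays. Over the 524 probes the mean level ran from -7.07 to 6.56, with 5% of the probes under -6.55, the middle 50% between -3.38 and 0.31 and 5% over 2.57. Of the 524, 7 (1.34%) were among the brightest 1% of circRNA probes and 50 (9.54%) among the brightest 10%, while 44 (8.40%) were among the dimmest 10%.

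The arrays read these circles reproducibly. Over the 386 circles detected everywhere, levels on any pair of arrays correlated across probes with Pearson's r from 0.97 to 0.99 (36 pairs of arrays, described without a test because probes are not replicates and share their probe strength between arrays). The median within-group SD of these 386 was 0.19, the same to 2 decimals as that of all circRNA probes detected on every array. The 3 group means of a circle lay close together: their range was 0.20 at the median, under 0.25 for 259 of the 386 (67.1%) and under 0.5 for 367 (95.1%).

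The 5 brightest circles were mmu-circRNA606, mmu-circRNA572, mmu-circRNA1091-2, mmu-circRNA755 and mmu-circRNA895, and their partner probes were about as bright. Circle mmu-circRNA606 read 6.92, 6.88 and 6.75 in the control group, 6.16, 6.22 and 6.73 on the high fat diet, and 6.36, 6.32 and 6.73 under metformin. Its controls were the highest arrays, but by a narrow margin: the lowest control read 6.75, and replicate 3 of both other groups read 6.73. The fat diet difference of mmu-circRNA606 was -0.48 ± 0.18 (SE), and missed the threshold (limma with Benjamini-Hochberg adjustment, adjusted p = 0.594).
Its partner averaged 6.54 against 6.56 for the circle probe itself. Circle mmu-circRNA572 averaged 6.68 ± 0.18, 6.28 ± 0.17 and 6.40 ± 0.12 in the control, high fat diet and metformin groups (SD, n = 3 each). Its fat diet difference was -0.40 ± 0.15 (SE; limma adjusted p = 0.602), and its partner lay 0.05 above it on average. Both of these bright circles were thus lower on the fat diet by values that missed the threshold.

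The other 3 bright circles were level across the groups. Circle mmu-circRNA1091-2 averaged 5.96, with group means between 5.94 and 5.99, and its spot on high fat diet replicate 1 was left out as an outlier by the scanner software. Circle mmu-circRNA755 averaged 5.30, with group means between 5.28 and 5.33, and mmu-circRNA895 averaged 5.28, with group means between 5.25 and 5.30. Of the 7 mmu-circRNA probes in the brightest 1%, 5 (71.4%) lay within 0.25 of their partner and none exceeded it by more than 1. Among the 305 brightest circRNA probes of all kinds, 25.9% lay within 0.25 of their partner and 34.4% exceeded it by more than 1. With 7 probes this is a description, and no test was made. Among the 50 in the brightest 10%, 20 exceeded their partner by more than 1 (against 41.7% of all).

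The circle probe was usually brighter than its partner. The median of the log2 circle probe minus partner was 0.84 ± 0.06 in the control group, 0.82 ± 0.04 on the high fat diet and 0.81 ± 0.08 in the metformin group (SD, n = 3 arrays each), so the groups differed by less than their spread. Averaged over the arrays, 106 of the 524 circles (20.2%, against 22.0% of all circRNA probes) had the brighter partner. At the other end, 242 (46.2%, against 43.3%) exceeded their partner by more than 1 and 67 (12.8%, against 12.1%) by more than 3. Of the 504 mmu-circRNA pairs read on every array, 341 (67.7%, against 62.9% of all pairs) had the brighter circle probe on all 9 arrays, and 46 (9.13%, against 12.4%) had the brighter partner on all 9.

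The lower share of brighter partners set the mmu-circRNA names beside the Fan names. On 9 of 9 arrays the share was lower than among the mmu_circ names, with differences of -4.17 to -2.15 percentage points, and lower than among the position-named probes, with -5.23 to -3.35 points. Against the Fan names, of which 18.2% had the brighter partner on average, it was higher on 6 of 9 arrays. The 9 arrays read the same probes, so these counts of arrays describe the agreement of arrays and are no test of the kinds. By the circle's own level, which enters the difference, the partner was brighter for 51 of the 131 in the dimmest of 4 equal classes and for 26, 14 and 15 of 131 in the successive ones. Only 2 circles of the dimmest class were detected on all 9 arrays, so its values are largely readings at background.

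At the high end of probe minus partner, mmu-circRNA522 read 1.30, 1.27 and 1.34 in the control group, 1.43, 1.93 and 1.42 on the high fat diet, and 1.36, 1.66 and 1.41 under metformin. Every fat-fed array was above every control array, but narrowly so between metformin replicate 1 (1.36) and control replicate 3 (1.34). The fat diet difference of mmu-circRNA522, 0.29 ± 0.16 (SE), missed the threshold (limma adjusted p = 0.754). Its partner averaged -6.35 and was well above background on 0 of 9 arrays, so the mean difference of 7.81 for mmu-circRNA522 depends on how a signal at background was read. The partners of the next 3 were also dim. Circle mmu-circRNA1693-1 averaged 1.39 and lay 6.60 above a partner detected on 4 arrays, mmu-circRNA1705-2 averaged -0.29 and lay 6.50 above one detected on 0, and mmu-circRNA1118-2 averaged 1.17 and lay 6.15 above one detected on 2.

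At the low end all 4 circles and their partners were detected on every array. Circles mmu-circRNA716-2 and mmu-circRNA716-1 share a number and behaved alike, at mean levels of -1.83 and -2.02. They lay below their partners by nearly the same amount, at -2.90 and -2.87, with group means between -2.95 and -2.82. Circle mmu-circRNA1722-2 lay at -2.03 relative to its partner and mmu-circRNA471-2 at -1.89. The partner was the brighter on 9 of 9 arrays for each of these 4.

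The partner also matters for the authors' deposited table, which lists a fixed lowest value of -3.32 (log2) for many probes. The table held this value on all 9 arrays for 48 mmu-circRNA probes (9.16%, against 12.4% of all circRNA probes), on no array for 352 (67.2%, against 62.2%) and on some for 124. All 48 had a partner that was brighter on average, and 23 of the 48 were well above background on all 9 arrays. None of the 352 never at that value had the brighter partner on average. Circles such as mmu-circRNA716-2, detected everywhere, therefore carry no measured differences in that table.

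Names with a suffix marked the brighter and more often detected members. The 241 circles with a suffix had array medians from -0.83 to -0.69, and the 283 without had -1.92 to -1.70. The suffix group was higher on 9 of 9 arrays, by 0.87 to 1.15 with a median of 1.03. It was detected on every array for 199 of 241 (82.6%), against 187 of 283 (66.1%). Among the circles detected on all 9 arrays the difference in medians was 0.19. The partners differed alike: those of suffixed circles were higher by 0.86 to 0.99 on 9 of 9 arrays, and the median of probe minus partner differed by 0.04 to 0.14. Suffixes -1 (100 circles) and -2 (111) made up most of the group, with medians of -1.14 and -0.56. The split by suffix was chosen after levels were known and was not tested.

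A number was shared by several circles in 37 cases, 35 pairs and 2 sets of 3, which together held 76 of the 524 circles. The other 448 numbers, between 1 and 1891, were used a single time, and no number occurred both with and without a suffix. Whether circles with a shared number come from 1 gene is not stated in the labels. The probe signals within a number ranged from equal to far apart. The brightest exceeded the dimmest by 1.35 at the median, by more than 1 in 22 of 37 cases, by more than 3 in 9 and by less than 0.5 in 11. In 29 of the 37 the same circle was brighter on every array compared.

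These values also carry the different hybridisation strengths of the probes, and the dimmest circle was detected on all 9 arrays for 23 of the 37 numbers, of which 11 had a gap over 1 and 5 over 3. For number 1705 the gap is a bound only: mmu-circRNA1705-2 averaged -0.29, and mmu-circRNA1705-1 was well above background on 0 of 9 arrays, so the gap was at least 4.46 against the dimmest detected signal of each array. Among pairs detected everywhere, mmu-circRNA229-2 lay 5.68 above mmu-circRNA229-1, which averaged -1.68, and mmu-circRNA207-2 averaged 2.32 against -2.83 for mmu-circRNA207-1. Circle mmu-circRNA993-1 averaged 0.46 against -4.22 for mmu-circRNA993-2, which was detected on 7 arrays. The order held on 9 of 9 arrays in each of these pairs. By contrast mmu-circRNA1127-1 and mmu-circRNA1127-2 averaged 0.48 and 0.41, and mmu-circRNA102-1 and mmu-circRNA102-3 averaged -3.80 and -3.84, with the order changing between arrays. These pairs were chosen for their gap after the values were seen.

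**Figure D2:**
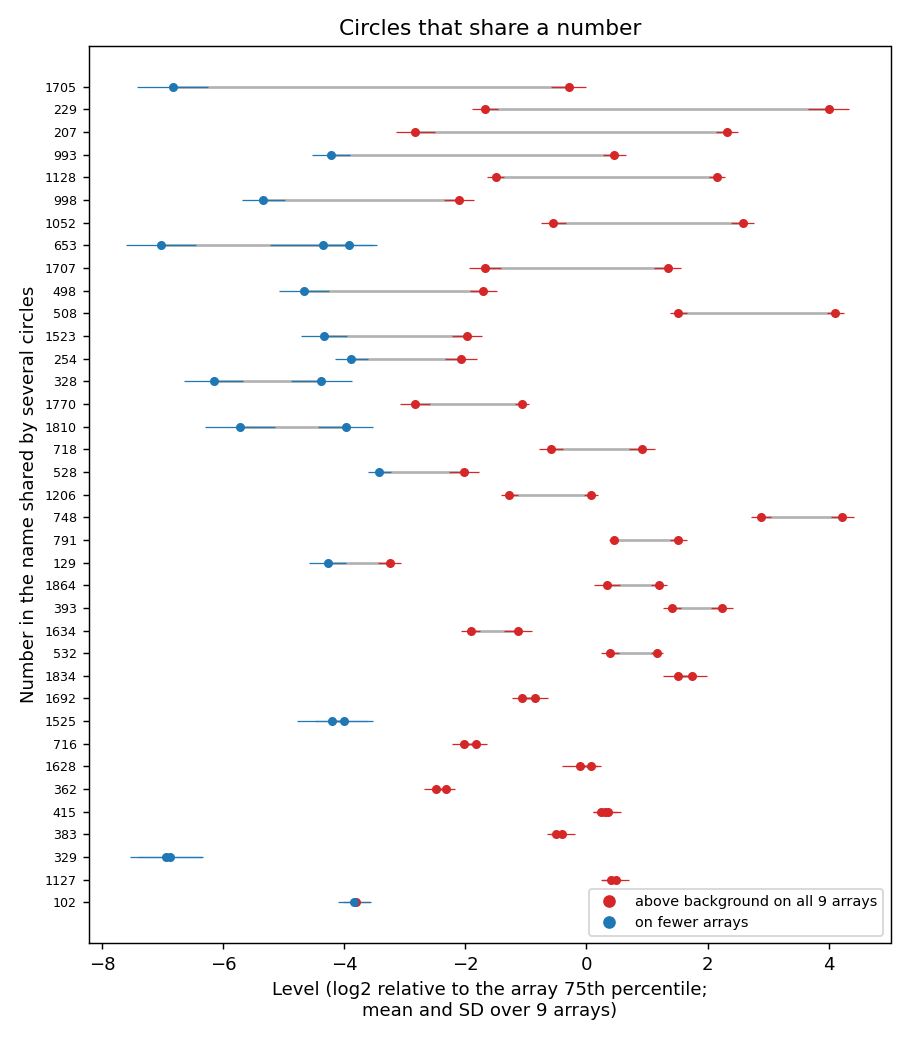
Mean level (log2, bars are the SD over 9 arrays) of the 76 circles that share a number with another, with a row for each of the 37 numbers, sorted by the difference of the plotted means. Red points mark circles detected on all 9 arrays; the dimmest circle of number 1705, at the top, was detected on 0, so its place in the order is not measured, while number 229 below it has a gap of 5.68 between circles detected on all 9.

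For comparisons between groups, a probe was tested where it was detected on all 3 arrays of at least 1 group. This kept 445 of the 524 mmu-circRNA probes (84.9%) and 25864 of all 30534 (84.7%). The other 79 were too dim to test, and 41 of the 445 passed through 1 group only. No mmu-circRNA probe passed an adjusted p of 0.05 in any of the 3 comparisons by limma. The 3 comparisons use the same 9 arrays and share groups, so their values are given side by side and are not independent. Circles named below for a comparison were picked by the smallest p in these data, a choice that favours groups without overlap. Statements of overlap thus describe the readings and add no support. The share of all probes without overlap is not given here.

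The comparison of the high fat diet with chow asks which circles differ in fat-fed liver. Of the 445 tested mmu-circRNA probes, 0 were called, and of all 25777 circRNA probes tested 0 were called (0%). The smallest adjusted p among the 445 was 0.408. At an unadjusted p under 0.05 there were 32 of 445 (7.19%), against 7.25% of all circRNA probes. Of the 32, 5 were higher (1.12%, against 2.07% of all) and 27 lower (6.07%, against 5.18%). The median difference over the 445 was -0.07, against -0.06 over all, and 285 of the 445 (64.0%, against 62.0%) lay below 0. The counts at this level were thus close to those of the whole array.
Single arrays moved the smaller count: it was 9 without control replicate 3, 11 without high fat diet replicate 2, 11 without high fat diet replicate 3 and 8 without metformin replicate 1. After normexp correction and quantile normalization, 10 were higher and 17 lower.

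Among circles higher on the fat diet, mmu-circRNA344 had the smallest p. It read -1.35, -2.02 and -1.47 in the control group, -0.63, -1.17 and -0.56 on the high fat diet, and -0.79, -1.30 and -1.19 under metformin. Every high fat diet array was above every control array, and the metformin arrays were above the controls and overlapped the high fat diet. The difference was 0.82 ± 0.22 (SE; limma adjusted p = 0.408). Its partner probe moved the same way, by 0.55, and was about as bright, so the circle probe minus partner differed by 0.28. In the authors' deposited table, where mmu-circRNA344 is at the lowest value on 6 of 9 arrays, the difference was 5.32. Within the slide column that held the 3 controls and high fat diet replicate 1, the difference of mmu-circRNA344 was 0.98.

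Circle mmu-circRNA1804-2 was dim but detected on every array. It read -3.51, -3.56 and -3.99 in the control group, -3.32, -2.92 and -2.45 on the high fat diet, and -3.75, -3.92 and -3.32 under metformin. The high fat diet arrays were highest and met the metformin group at replicate 3. The difference from the control was 0.79 ± 0.23 (SE; limma adjusted p = 0.485), and 0.35 after normexp correction and quantile normalization. Its partner was detected on 0 of 9 arrays. Circle mmu-circRNA602 read 0.01, -0.09 and 0.08 in the control group, 0.49, 0.61 and 0.50 on the high fat diet, and 0.10, 0.53 and 0.81 under metformin. Its control and high fat diet arrays were tightly grouped and apart, while metformin spanned the gap. The difference was 0.53 ± 0.17 (SE; limma adjusted p = 0.505), and 0.27 as probe minus partner. In the authors' deposited table, with mmu-circRNA602 at the lowest value on 2 arrays, it was 7.83.

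Among circles lower on the fat diet, mmu-circRNA1714 read 1.24, 1.22 and 1.28 in the control group, 0.92, 0.63 and 0.60 on the high fat diet, and 1.02, 1.28 and 0.84 under metformin. The controls lay close together and above all high fat diet arrays, and metformin overlapped both. The difference was -0.53 ± 0.15 (SE; limma adjusted p = 0.458), but its partner differed by -0.47, and probe minus partner by -0.06. Circle mmu-circRNA603 read 0.19, 0.04 and 0.15 in the control group, -0.30, -0.36 and -0.39 on the high fat diet, and -0.14, 0.07 and -0.32 under metformin. Its control and high fat diet groups did not overlap, and metformin lay between them on average. The difference was -0.47 ± 0.14 (SE; limma adjusted p = 0.458), with -0.26 for the partner.

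The third of these, mmu-circRNA1810-2, was detected on 7 of 9 arrays. It read -3.24, -3.45 and -3.87 in the control group, -4.38, -4.49 and -3.93 on the high fat diet, and -3.84, -3.99 and -4.60 under metformin. It was detected on all 3 arrays of the control group only, so it passed the filter through the group where it read highest. The readings of -4.49 (high fat diet replicate 2) and -4.60 (metformin replicate 3) were not well above background, so their exact size is not measured. As read, all controls were above all high fat diet arrays, by a narrow margin at control replicate 3. The difference was -0.75 ± 0.23 (SE; limma adjusted p = 0.493), -0.64 without high fat diet replicate 2, and -0.28 after normexp correction and quantile normalization. It was -1.16 in the authors' deposited table. Within the slide column of the 3 controls and high fat diet replicate 1, the difference was 0.36 for mmu-circRNA1804-2 and 0.49 for mmu-circRNA602. There it was -0.33 for mmu-circRNA1714, -0.42 for mmu-circRNA603 and -0.86 for mmu-circRNA1810-2. The high fat diet side of these values is that 1 array.

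**Figure D3:**
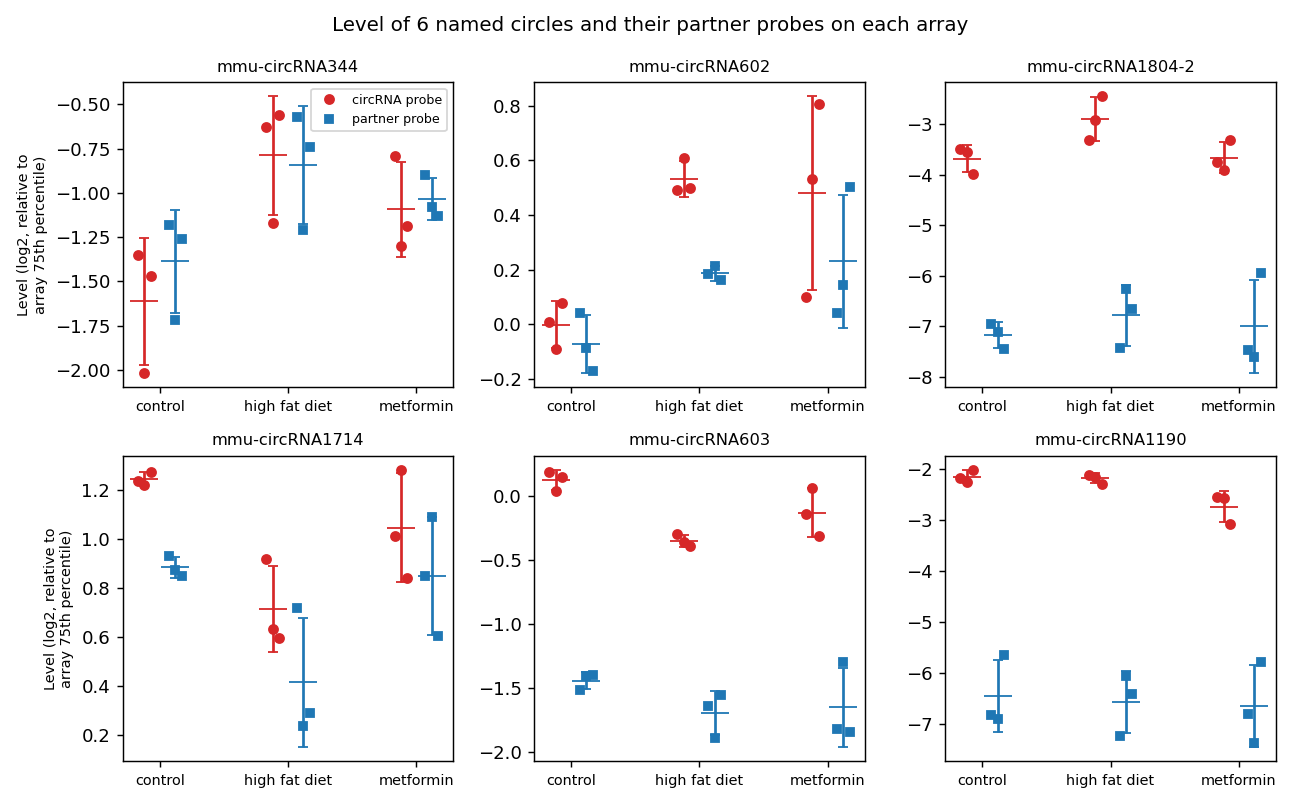
Level (log2 relative to the array 75th percentile) of 6 named circles (red) and their partner probes (blue) on each array of the 3 groups, with the group mean (horizontal bar) and SD (vertical bar, n = 3). For mmu-circRNA344 and mmu-circRNA1714 the partner follows the circle probe, while the partners of mmu-circRNA1804-2 and mmu-circRNA1190 stay at background.

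The comparison of metformin with the high fat diet alone asks which circles differ with the drug under the same diet. Of 445 tested mmu-circRNA probes, 0 were called, as were 0 of 25828 of all kinds (0%), and the smallest adjusted p among the 445 was 0.969. At an unadjusted p under 0.05 there were 16 of 445 (3.60%, against 3.90% of all). Of these, 11 were higher (2.47%, against 2.32%) and 5 lower (1.12%, against 1.58%). The median difference was 0.06, against 0.03 over all. The direction of the split was unstable: after normexp correction and quantile normalization 8 were higher and 11 lower. The higher count was 6 without control replicate 2, 17 without high fat diet replicate 1, 7 without metformin replicate 2 and 18 without metformin replicate 3. The lower count was 8 without high fat diet replicate 2, metformin replicate 1 or metformin replicate 2, and 11 without high fat diet replicate 3.

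Among circles higher with metformin, mmu-circRNA163-2 read -2.09, -2.32 and -1.90 on the high fat diet, -1.80, -1.34 and -1.60 under metformin, and -1.89, -2.06 and -1.95 in the control group. All metformin arrays were above all others, and the difference was 0.52 ± 0.16 (SE; limma adjusted p = 0.969). It was 0.35 after normexp correction and quantile normalization, 0.33 as probe minus partner and 2.55 in the authors' deposited table. Circle mmu-circRNA1886-1 read -3.25, -4.65 and -3.41 on the high fat diet, and -2.83, -2.54 and -2.96 under metformin. Its difference of 1.00 ± 0.32 (SE; limma adjusted p = 0.969) leaned on high fat diet replicate 2, where the probe was not well above background, and was 0.56 without it and 0.41 after normexp correction and quantile normalization. Its partner, detected on 3 of 9 arrays, differed by 1.53, so probe minus partner ran the other way, at -0.53. Circle mmu-circRNA1657 read -0.37, -0.40 and -0.24 on the high fat diet, and -0.04, 0.23 and -0.06 under metformin, without overlap. Its difference was 0.38 ± 0.13 (SE; limma adjusted p = 0.969), and that of its partner 0.34.

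Among circles lower with metformin, mmu-circRNA1190 appeared in both comparisons of the drug group. It read -2.17, -2.25 and -2.01 in the control group, -2.10, -2.14 and -2.28 on the high fat diet, and -2.55, -2.56 and -3.08 under metformin. Control and high fat diet arrays overlapped, and every metformin array was below them. The difference was -0.55 ± 0.16 from the high fat diet (SE; limma adjusted p = 0.969) and -0.59 ± 0.16 from the control (SE; limma adjusted p = 0.778). After normexp correction and quantile normalization these were -0.36 and -0.30. Within the slide column that held high fat diet replicates 2 and 3 and metformin replicates 1 and 2, the difference of mmu-circRNA1190 was -0.34. Its partner was detected on 0 of 9 arrays.

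Circle mmu-circRNA1804-2, the second of the fat diet's higher circles, was lower again with metformin by -0.77 ± 0.23 (SE; limma adjusted p = 0.969), with metformin replicate 3 and high fat diet replicate 1 both at -3.32, and by -0.37 after normexp correction and quantile normalization. These comparisons share the high fat diet arrays, so a high reading there gives opposite signs in them. Circle mmu-circRNA64 read -3.05, -2.77 and -2.55 on the high fat diet, and -3.73, -3.13 and -3.31 under metformin, without overlap, and its controls lay at -2.85, -3.24 and -3.27. The difference was -0.60 ± 0.19 (SE; limma adjusted p = 0.969), and -0.25 after normexp correction and quantile normalization.

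The comparison of metformin on the fat diet with chow spans diet, gavage and drug together. Again 0 of 445 mmu-circRNA probes and 0 of 25763 of all kinds (0%) were called, with a smallest adjusted p of 0.778 among the 445. At an unadjusted p under 0.05 there were 26 of 445 (5.84%, against 5.07% of all), of which 8 were higher (1.80%, against 1.64%) and 18 lower (4.04%, against 3.43%). The median difference was -0.02, against -0.03 over all. The count of 26 fell to 15 without control replicate 1, with 9 lower. It was 23 without metformin replicate 3, with 13 higher and 10 lower, and 22 without metformin replicate 2, with 5 higher. After normexp correction, 12 were higher and 16 lower with quantile normalization, and 11 and 11 with 75th percentile scaling.

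Among circles higher than in chow liver, mmu-circRNA632-2 read 0.42, 0.61 and 0.66 in the control group, 1.02, 0.61 and 0.87 on the high fat diet, and 1.06, 0.90 and 1.04 under metformin. Metformin and control arrays did not overlap, and the difference was 0.44 ± 0.14 (SE; limma adjusted p = 0.863). The partner differed by 0.46, so probe minus partner differed by -0.02. Circle mmu-circRNA951-2 read -0.72, -1.23 and -0.76 in the control group, -0.42, -0.90 and -0.32 on the high fat diet, and -0.37, -0.43 and -0.35 under metformin. The 3 metformin arrays lay close together and above all controls. The difference was 0.52 ± 0.18 (SE; limma adjusted p = 0.906), with 0.46 for its partner, which was the brighter on 9 of 9 arrays.

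The smallest p among the higher circles belonged to mmu-circRNA653-3, whose spot was left out as an outlier on 5 of 9 arrays. Its difference of 1.66 ± 0.38 (SE; limma adjusted p = 0.778) compares metformin readings of -4.16 and -3.26 with the single remaining control at -5.37. That control reading, on replicate 3, lay below the dimmest detected level of its array (-5.20), so its exact size is not measured. The circle was detected on all 3 metformin arrays and on 2 controls, both of which were left out as outliers. The difference was 0.57 after normexp correction and quantile normalization, and in the authors' deposited values mmu-circRNA653-3 differed by -1.17. Its direction is thus not settled by these arrays.

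Among circles lower than in chow liver, mmu-circRNA366-2 read -2.37, -2.69 and -2.61 in the control group, -2.70, -3.00 and -2.47 on the high fat diet, and -3.04, -3.14 and -3.02 under metformin. The metformin arrays were the lowest 3 of the 9. The difference was -0.51 ± 0.16 (SE; limma adjusted p = 0.855), or -0.28 after normexp correction and quantile normalization, and its partner differed by 0.05. Circle mmu-circRNA1431-2 read -2.19, -2.11 and -2.63 in the control group, -3.13, -2.41 and -2.46 on the high fat diet, and -3.11, -2.96 and -2.84 under metformin. Metformin and control did not overlap, and the difference was -0.66 ± 0.21 (SE; limma adjusted p = 0.855), or -0.42 after normexp correction and 75th percentile scaling.

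**Figure D4:**
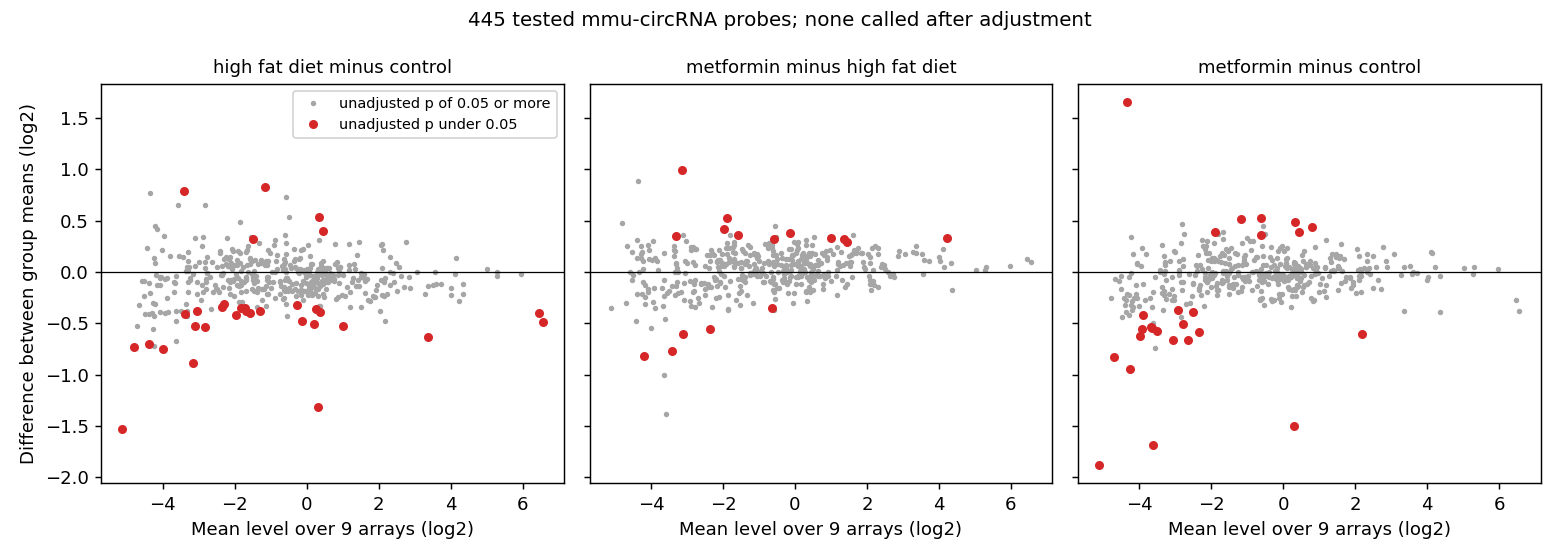
Difference between group means (vertical, log2) against mean level (horizontal, log2) for the 445 tested mmu-circRNA probes in each comparison. Red points have an unadjusted limma p under 0.05 (32, 16 and 26 from left to right), none passes after adjustment, and differences over 1 occur in 2, 2 and 4 probes.

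Differences of more than 1 between group means were few, and 5 circles held all of them: 2 probes of 445 for the fat diet (0.449%, against 0.415% of all), 2 for metformin against the fat diet (0.449%, against 0.163%) and 4 for metformin against the control (0.899%, against 0.295%). Beside mmu-circRNA653-3, each moved by more than 1.5 times without 1 array, and without it only the metformin difference of mmu-circRNA789 from the control stayed over 1. The 3 circles that no rule named and the arrays left out were picked after their values were seen. Circle mmu-circRNA1524 read 2.92, 0.48 and 0.34 in the control group, -0.25, -0.26 and 0.31 on the high fat diet, and -0.17, 0.08 and -0.68 under metformin. Control replicate 1 stood apart, and its partner did so too, at 2.66. The fat diet difference was -1.31 ± 0.53 (SE; limma adjusted p = 0.636) and -0.48 without that array, and the metformin difference -1.50 ± 0.53 (SE; limma adjusted p = 0.906) and -0.67 without it.

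Circle mmu-circRNA1382 read 0.30 on high fat diet replicate 3 and between -4.84 and -2.83 on the other 8 arrays, 2 of which did not detect it. It was detected on 2 arrays each of the high fat diet and metformin groups, so a reading in each has no measured size. Thus it passed the filter through the control group only. Its metformin minus high fat diet difference of -1.39 ± 0.98 (SE; limma adjusted p = 0.969) turned to 0.21 without that array. Its partner read 0.10 on the same array. Circle mmu-circRNA372 read -1.97, -2.82 and -3.72 in the control group, -3.32, -2.67 and -4.54 on the high fat diet, and -3.70, -3.85 and -6.01 under metformin. The readings of -4.54 and -6.01 were not well above background, so their exact size is not measured. This circle was detected on all 3 arrays of the control group only, and passed the filter through that group. Its groups overlapped, and the difference of metformin from the control was -1.68 ± 0.63 (SE; limma adjusted p = 0.919), or -0.94 without metformin replicate 3. Its difference from the high fat diet was -1.01 ± 0.63 (SE; limma adjusted p = 0.969), or -0.26 without that replicate.

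In 2 circles a group was detected on all 3 arrays and another on none, and both passed the filter through the control group only. Circle mmu-circRNA789 was detected on the 3 controls, at -2.31, -4.49 and -5.12, and on no other array. The high fat diet arrays read -5.68, -5.91 and -4.93 and the metformin arrays -6.86, -5.97 and -4.74, all not well above background. The control overlapped both groups. Its mean was at least 1.51-fold brighter than the high fat diet and at least 1.72-fold brighter than metformin, taking as the bound of a dim array the higher of its dimmest detected signal and the probe's own. Both folds rested on control replicate 1: without it the control mean was -4.81, below the bounds of -4.57 and -4.75. The measured means gave -1.53 ± 0.65 (SE; limma adjusted p = 0.658) and -1.88 ± 0.65 (SE; limma adjusted p = 0.902), and -0.70 and -1.05 without control replicate 1. Circle mmu-circRNA1114 was detected on 3 control arrays, 0 high fat diet arrays and 2 metformin arrays. It read -4.52, -4.63 and -4.24 in the control group, -5.28, -5.42 and -4.88 on the high fat diet, and -4.47, -4.29 and -5.41 under metformin. The high fat diet arrays read below all controls, but none was well above background. By that bound the control mean was at least 1.07-fold brighter. The dimmest detected signal of high fat diet replicate 2, -4.04, was above all 3 control readings, so non-detection there does not set it apart from the control. The measured difference was -0.73 ± 0.26 (SE; limma adjusted p = 0.566).

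The partner probe shared part of these differences across the set. Over the 353 tested mmu-circRNA probes whose partner also passed the filter, the differences of circle and partner correlated across probes with Pearson's r of 0.62 for the fat diet, 0.55 for metformin against the fat diet and 0.63 for metformin against the control. Over all circRNA probes these were 0.59, 0.48 and 0.50. Probe and partner share the array and its scaling, so the values are a description without a test. Of the circles with an unadjusted p under 0.05 and a tested partner, the sign of the partner's difference was the same in 19 of 22 (86.4%), 8 of 10 (80%) and 13 of 16 (81.2%). Over all circRNA probes at that level the shares were 92.3%, 83.1% and 85.6%. Suffixed and plain names had like medians: -0.08 and -0.06 for the fat diet, 0.06 and 0.05 for metformin against the fat diet, and -0.03 and -0.02 for metformin against the control.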

How the data were processed

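Scanner output of 9 single-colour Agilent arrays (62617 spots, 1439 of them control spots) was analysed. The deposited intensity is the processed signal of Agilent Feature Extraction, background-subtracted and detrended, version 11.5.1.1 per the file headers (10.7 per the submitters' processing notes). Log2 was taken, spots flagged as outliers were dropped (0 to 9 mmu-circRNA spots per array), spots of a probe were averaged and the array's 75th percentile over non-control probes was subtracted. The authors' deposited log2 table served as an alternative. It is floored at -3.32, and its scale and centring are not given in the sources used here.

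limma 3.58.1 (R 4.3.3; lmFit, eBayes) was fitted to all circRNA probes detected on all 3 arrays of a group, with 3 groups, no covariate and Benjamini-Hochberg adjustment over all of them, and was tested on simulated data. An adjusted p under 0.05 was a call.

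Named circles were, per comparison, the 3 with the smallest p in each direction, the 5 brightest, the 4 with the highest and 4 with the lowest probe minus partner, and those detected in a whole group and nowhere in another. Other circles named are marked in the text. The members and lists were chosen with earlier results of these data known.

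Normexp correction (offset 50) used the median signal, since the mean signal was not in the files used. Precision is limited by the number of arrays. Replicate numbers were not treated as pairs, because deviations of same-numbered arrays correlated by -0.14 to 0.19 and above 0.1 in 2 of 9 cases.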

Additional observations from a re-analysis of the deposited data

How the results depend on the processing

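No mmu-circRNA probe was called in any of the 3 comparisons under the 20 alternatives, with smallest adjusted p of 0.0749, 0.395 and 0.0593 (over all circRNA probes 0 to 19, 0 to 14 and 0 to 23 were called). The alternatives were other filters, background corrections and scalings, the authors' values, the ratio to the partner, a trended robust fit, slide or array column as a covariate, a replicate block, and leaving out each array. With the replicate number as a block, limma called 0 of the mmu-circRNA probes in each comparison, with 36, 15 and 28 at an unadjusted p under 0.05 (32, 16 and 26 without it). Replicate numbers were not found to pair the arrays. Without each array in turn, 0 were called, and the counts at that level ran from 27 to 43 for the fat diet, 11 to 22 for metformin against the fat diet and 15 to 30 for metformin against the control.

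Of 351 alternative values of the named differences, 348 kept their direction and side of the threshold, but not always their size. Of 18 values each, 10 moved by more than 1.5 times after normexp with quantile normalization, 10 after normexp with percentile scaling and 13 as ratios to the partner; 5 of 16 did so in the authors' values (up to 7.83 from 0.53 for mmu-circRNA602). The 3 that reversed were mmu-circRNA1886-1 (-0.53) and mmu-circRNA632-2 (-0.019) as ratios to the partner, and mmu-circRNA653-3 (-1.17) in the authors' values; the cause was not tested. For mmu-circRNA951-2 the authors' values are all at their floor and give none. For mmu-circRNA366-2 they gave no usable difference of metformin from the control either.

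Over the call counts, detected shares, group medians and suffix difference, 88 alternatives were the same as the main value. The other 21 moved by at least the SD between arrays, some of them through a change of scale. With the laxer detection flag the detected share was 94.8% in the control and 93.3% in the high fat diet group. Median levels in the control, high fat diet and metformin groups were 8.58, 8.62 and 8.61 after normexp and quantile normalization, which sets no array percentile to 0, then -1.17, -1.15 and -1.13 after normexp with percentile scaling, and 0.54, 0.52 and 0.59 with array median scaling. Probe minus partner was 0.54, 0.55 and 0.52 after normexp, and 0.62, 0.63 and 0.64 over the 287 pairs with both probes detected on all 9 arrays. The suffix difference, whose alternatives were chosen after seeing the data, was 0.82 after normexp with either scaling, 0.19 among circles detected on all 9 arrays and 1.16 over numbers used a single time. Leaving out an array gave detected shares of 86.5% to 88.5%, 80.7% to 86.0% and 81.8% to 89.7%, median levels of -1.36 to -1.33, -1.39 to -1.35 and -1.31 to -1.28, and probe minus partner of 0.81 to 0.87, 0.80 to 0.84 and 0.77 to 0.85.

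Signals near background limit the dim circles, and 79 were too dim to test.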
